A study of Mus musculus with 10 samples.

Results

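Genes of the axon guidance ligand and receptor families were followed in lymphatic endothelial cells (LECs) of mouse ear skin. They were taken by the start of their symbols, which covered semaphorins 3 to 7, plexins, Slit and Robo genes, netrins other than Ntn1, Unc5 genes, and Eph receptors and ephrins. The prefixes held 70 genes, of 42558 genes joined across the plate tables and 32285 in the droplet matrices. Of the 70, 65 were guidance genes and 5 were other transcripts that share a prefix, namely Plxna4os1, Plxna4os2, Plxna4os3, Unc50 and Unc5cl. The 65 guidance genes were 7 class 3 semaphorins, 13 membrane semaphorins, 9 plexins, 7 Slit or Robo genes, 7 netrin or Unc5 genes, 14 Eph receptors and 8 ephrins.

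These families were named for their part in steering growing axons, and endothelial cells use many of the same molecules. Semaphorins bind plexins, the class 3 semaphorins mostly with a neuropilin as coreceptor. Slits bind Robo receptors, netrins bind Dcc, neogenin and Unc5 receptors, and membrane-bound ephrins bind Eph receptors on neighboring cells, where both sides can signal. In lymphatic vessels, ephrin-B2 and its receptor EphB4 are known for their part in the formation of valves and collecting vessels, neuropilin-2 for binding VEGF-C, and semaphorin 3A for its part in valve shape.

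LECs were measured by Smart-seq in 8 plates of sorted single cells, 2 plates for each of 4 genotypes. The pups carried floxed Tie1 (strain Tie1 fl/fl) or floxed Tie1 and Tie2 (strain Tie1 Tie2 fl/fl), and all 8 plates, controls included, came from pups given 62.5 µg of 4-hydroxytamoxifen by intragastric injection on P1 to P5. The deleted pups (Tie1 iΔLEC and Tie1 Tie2 iΔLEC) carried Prox1-CreERT2, which is active in Prox1-expressing cells, and the controls did not carry Cre. Sorted cells were positive for CD31 and podoplanin and negative for CD45, CD11b and Ter119. In the Tie1 strain replicate 1 was female and replicate 2 male in both genotypes, and all plates of the Tie1 Tie2 strain were male. The number of mice behind a plate was not given, so p-values measure the spread between plates. In the second experiment, CD31-sorted ear skin cells of C57Bl/6j wild-type mice were measured in 2 droplet libraries (10x), 1 after mouse IgG1 and 1 after the Ang2-blocking antibody (Ang2 Ab, 20 mg/kg, given from P16 to P21).

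The LEC wells numbered 309 to 362 per plate and 2751 in all, and their summed counts were 66980993 to 104181243 per plate. The 7 LEC markers summed to 6525 to 8448 CPM (counts scaled to 1000000 per plate) in every plate. Levels of Tie1 were 2205 and 2869 CPM without and 677 and 655 with Cre in the Tie1 strain, and 2750 and 2547 without and 740 and 455 with Cre in the Tie1 Tie2 strain. Tek, which encodes Tie2, had 315 and 288 CPM in the controls of the Tie1 Tie2 strain, 32.3 and 51.0 CPM after deletion, and 213 to 337 CPM in the 4 plates of the Tie1 strain. The droplet libraries gave 1202 LECs with 16251785 UMIs (IgG) and 650 LECs with 8608842 UMIs (Ang2 Ab), and 5 of 9011 barcodes were shared. Both were labelled male, but Xist was found in 55.3% and 38.8% and Y-linked genes in 34.2% and 45.1% of their kept cells, in the order IgG and Ang2 Ab, and the label of the Ang2 Ab library also carries the word control. With 1 library per antibody, the antibody, the mixture of sexes and the library cannot be told apart.

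Control LECs expressed a limited set of the guidance genes. Of the 64 present in the plate tables, 10 had a mean of at least 100 CPM over the 4 control plates, 23 had at least 10 CPM, 13 had 1 to 10 CPM, and 28 were under 1 CPM. Per kilobase of exon, the highest level was that of Ephb4, the receptor of ephrin-B2, with 166 CPM per kb (772 CPM ± 86.7, SD, n = 4). Efna1, a membrane-anchored ligand of EphA receptors, followed with 151 CPM per kb (276 CPM ± 22.2, SD, n = 4), then Robo4, the endothelial Robo, with 62.3 CPM per kb (331 CPM ± 64.4, SD, n = 4), and Sema6a, a membrane semaphorin, with 48.4 CPM per kb (425 CPM ± 49.4, SD, n = 4). The levels of Ephb4 and Efna1 per kb did not differ beyond their spread, and the same holds for Plxnd1 and Sema3d, with 22.6 and 22.2 CPM per kb. The next genes in the order were Sema3f with 29.4, Unc5b, an endothelial netrin receptor, with 17.9, Sema4d with 15.4, Plxnb2 with 14.6, and Epha2, which binds ephrin-A1, with 13.1 CPM per kb. Efnb2, the ligand of Ephb4, was the 13th gene with 9.98 CPM per kb (68.4 CPM ± 4.20, SD, n = 4). Semaphorins, plexins, ephrins and Eph receptors each had members above 10 CPM, while Ntn4 and the Slit genes had control means under 10 CPM.

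**Figure D1:**
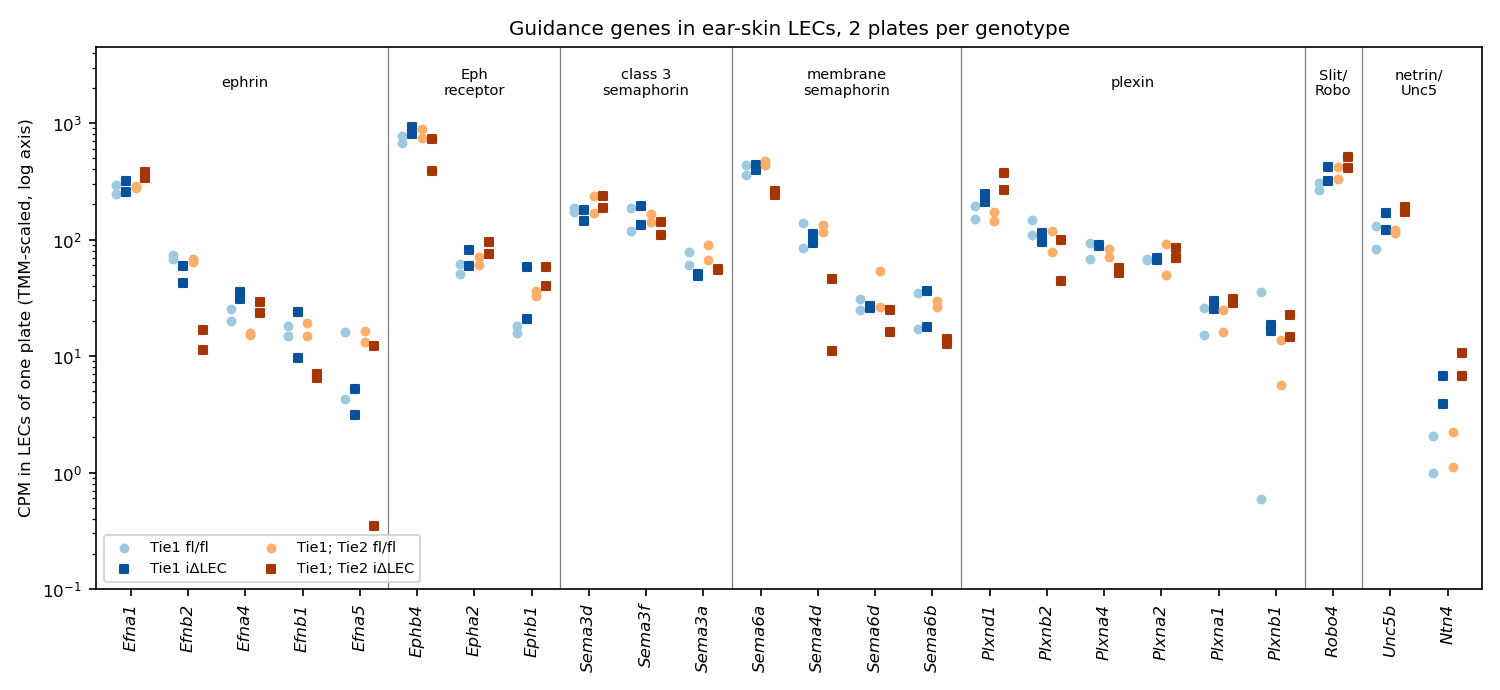
Level of the 23 guidance genes with a control mean of at least 10 CPM, and of Ntn4, in the LECs of each plate (CPM on a log axis, 1 symbol per plate, genotypes told apart by color and shape). The Tie1 Tie2 iΔLEC plates stand apart at lower CPM for Efnb2 (16.6 and 11.3 CPM) and Sema4d (45.8 and 11.0 CPM), while the 8 plates lie close together for Efna1 (245 to 382 CPM).

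Efnb2, Plxnd1 and Ntn4 are among the members with values set apart in both the genotype and the antibody comparison, and Robo4 in the antibody comparison, so the 250 bases before their RefSeq start sites are shown. They are given 5′ to 3′ on the strand of the gene in GRCm38.p6, at chr8:8661243-8661492 (minus strand) for Efnb2, chr6:115995006-115995255 (minus strand) for Plxnd1, chr9:37401722-37401971 (plus strand) for Robo4 and chr10:93640799-93641048 (plus strand) for Ntn4. RefSeq held a start site for 59 of the 70 genes. Capitals mark matches on either strand to GTAAAC (forkhead core), CACGTG (E-box), CCGGAA (ETS core), CCAAT, and GGGCGG (GC box).
Efnb2: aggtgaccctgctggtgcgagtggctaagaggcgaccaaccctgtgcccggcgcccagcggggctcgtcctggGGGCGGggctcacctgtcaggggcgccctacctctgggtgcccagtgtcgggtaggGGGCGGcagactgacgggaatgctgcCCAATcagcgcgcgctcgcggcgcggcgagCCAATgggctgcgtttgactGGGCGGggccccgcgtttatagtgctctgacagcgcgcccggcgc
Plxnd1: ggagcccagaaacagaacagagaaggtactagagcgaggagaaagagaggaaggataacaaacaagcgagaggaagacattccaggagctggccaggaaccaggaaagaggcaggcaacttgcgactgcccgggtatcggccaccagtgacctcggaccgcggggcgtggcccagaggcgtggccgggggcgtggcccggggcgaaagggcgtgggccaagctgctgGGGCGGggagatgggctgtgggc
Robo4: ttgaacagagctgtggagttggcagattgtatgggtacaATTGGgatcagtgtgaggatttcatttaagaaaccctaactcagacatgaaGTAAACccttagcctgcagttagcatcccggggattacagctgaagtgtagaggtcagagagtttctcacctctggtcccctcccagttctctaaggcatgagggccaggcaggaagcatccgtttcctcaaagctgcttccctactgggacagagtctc
Ntn4: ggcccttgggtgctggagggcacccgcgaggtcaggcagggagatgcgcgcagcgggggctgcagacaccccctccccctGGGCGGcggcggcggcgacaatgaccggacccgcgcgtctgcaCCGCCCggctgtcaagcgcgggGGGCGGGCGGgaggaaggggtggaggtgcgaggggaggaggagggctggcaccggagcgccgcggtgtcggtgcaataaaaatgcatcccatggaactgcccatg
The Efnb2 window held 2 CCAAT and 3 GC box matches, the Plxnd1 window 1 GC box, and the Robo4 window 1 forkhead core and 1 CCAAT on the other strand. The Ntn4 window held 4 GC box matches, 2 of which overlap in the run of capitals GGGCGGGCGG. Among 32851 mouse promoter windows of this length, 33.8% held CCAAT, 32.7% the GC box, 12.03% the ETS core, 6.92% the forkhead core and 6.02% the E-box, and these matches describe the letters only.

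The comparison of Tie1 Tie2 iΔLEC with Tie1 Tie2 fl/fl asks which guidance genes change when both Tie receptors are lost from LECs. Efnb2 fell, and it was the one guidance gene of 58 tested that passed the threshold (1.72%, against 1.20% of the 19903 genes tested, 0.899% on the lower side, adjusted p under 0.05). Membrane semaphorins and ephrins held most of the lower values, whereas Plxnd1 and Ntn4 had higher values in both deleted plates without passing the adjustment. At an unadjusted p under 0.05, 14 of the 58 were found (24.1%, against 10.6% of all genes), 3 higher and 11 lower, where 3.67% and 6.93% of all genes were. Of the 58 tested, 22 had control means under 1 CPM. Efna2, among the 11, was at 0.150 and 0.424 CPM in Tie1 Tie2 fl/fl and at most 0.0129 CPM in the other plates. It passed the filter only through the Tie1 Tie2 fl/fl plates, so its lower value was set in advance. Both deleted plates lay above both controls for 13 genes and below them for 18, where 16.6% and 20.6% of all genes did so. The median log2 fold change was -0.05 over the 58 guidance genes and 0.00 over all genes.

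Among the ephrins, Efnb2 (GRCm38 chr8:8617434-8661242, minus strand) had 67.7 and 64.0 CPM in the control plates and 16.6 and 11.3 CPM in the double-deleted ones. The groups did not overlap, and the fold change on the log2 scale was -2.24 ± 0.31 (SE) with an edgeR call (adjusted p = 0.0133, edgeR quasi-likelihood test with Benjamini-Hochberg adjustment). Reads of Efnb2 were found in 63.8% of 672 control wells and in 14.2% of 717 deleted wells. In 14 of 18 alternative analyses the change passed the threshold, with log2 fold changes of -2.58 to -1.88 and adjusted p of 2.57e-09 to 0.0986. It did not pass when the 4 plates of the strain were tested alone (adjusted p = 0.053), or without either control plate of the strain (0.0986 without replicate 1 and 0.0666 without replicate 2) or deleted replicate 2 (0.0757).

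The other ephrins were less abundant. Efnb1, whose product also binds EphB receptors, was at 14.8 and 19.2 CPM against 7.06 and 6.48, a log2 fold change of -1.33 ± 0.50 (SE) that did not pass (adjusted p = 0.387). Efna4, which encodes a ligand of EphA receptors, was higher in both deleted plates, with 29.0 and 23.5 CPM against 15.3 and 15.9 (0.75 ± 0.32, SE, adjusted p = 0.459). Efna1, the most abundant ephrin in LECs, was at 277 and 289 CPM against 382 and 338 (0.35 ± 0.21, SE, adjusted p = 0.638). Of the 8 ephrins, 5 had both deleted plates below both controls and 2 had them above, where 20.6% and 16.6% of all genes did so. Efna2 (0.150 and 0.424 against 0 and 0 CPM) and Efnb3 (1.31 and 1.18 against 0 and 0.0278 CPM), which had an unadjusted p under 0.05 on the lower side, were under 1.4 CPM in the plates of the strain, and 1 well held 100% and 95.2% of the reads of the plate where it was most.

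Of the 11 Eph receptors tested none passed. Ephb4 was at 887 and 743 CPM in the controls and at 726 and 386 in the deleted plates, a log2 fold change of -0.55 ± 0.29 (SE, adjusted p = 0.572), in which deleted replicate 2 stood lower than the other 7 plates. Epha2 was at 71.1 and 60.002 against 95.2 and 75.8 CPM. Epha4, a receptor of both ephrin classes, was at 13.5 and 4.12 CPM in the controls and 0.0941 and 0.315 in the deleted plates (-5.40 ± 1.55, SE, adjusted p = 0.232). It was read in 11.2% of control wells and 2.51% of deleted wells, and 1 well held up to 89.02% of the reads of a plate. Epha6, Epha7 and Epha8 were too low to be tested.

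All 13 membrane semaphorins were tested and none passed. Both deleted plates lay below both controls for 6 of them and above for none, where 20.6% and 16.6% of all genes did so. The 6 include Sema5a and Sema5b, which were at low levels. Sema4d, a ligand of plexin-B1, was at 133 and 116 CPM in the controls and 45.8 and 11.0 in the deleted plates. The groups did not overlap, but the deleted plates differed from each other, and the log2 fold change of -2.13 ± 0.59 (SE) did not pass (adjusted p = 0.208). Without deleted replicate 1 the fold change was -3.54 and passed (adjusted p = 0.0182), as it did with DESeq2 (adjusted p = 0.00982) and without the filter on low counts (1.77e-07). Reads of Sema4d were found in 64.6% of control wells and 15.1% of deleted wells. Sema6a, which binds A-type plexins, was at 432 and 472 CPM against 259 and 240 (-0.86 ± 0.20, SE, adjusted p = 0.116), with tight replicates and no overlap. Sema6d was at 54.2 and 26.5 CPM against 24.8 and 15.99 and Sema6b at 26.5 and 30.0 against 12.7 and 14.1, with log2 fold changes of -0.98 ± 0.41 and -1.08 ± 0.47 (SE). The low-level Sema5b was at 4.18 and 2.20 CPM against 0.125 and 0.139 (-4.57 ± 0.92, SE, adjusted p = 0.0683), and 1 well held up to 74.5% of its reads in a plate. Sema5a was at 0.500 and 0.693 CPM against 0.0314 and 0.111 (-3.01, unadjusted p = 0.0409).

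None of the 6 class 3 semaphorins tested, the secreted ligands, passed the adjustment. Sema3b was at 0.874 and 0.165 CPM in the controls and 3.61 and 1.81 in the deleted plates, without overlap (2.38 ± 1.06, SE, adjusted p = 0.483), and Sema3e at 0.150 and 0.620 against 0.0627 and 0.121 CPM (-2.04 ± 1.40, SE, adjusted p = 0.699). Sema3d was at 168 to 238 CPM in all plates of the Tie1 Tie2 strain (log2 fold change 0.07 ± 0.25, SE), and Sema3f, a ligand of neuropilin-2, was at 141 and 167 against 141 and 109 CPM (-0.30 ± 0.30, SE). Sema3a was at 67.2 and 90.3 CPM in the controls and 54.3 and 55.4 in the deleted plates (-0.52 ± 0.26, SE, adjusted p = 0.556), below both controls. Sema3g, an arterial semaphorin, was under 0.2 CPM in every plate and was not tested.

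Among the 9 plexins, Plxnd1 had the lowest p-value. This receptor of semaphorin 3E was at 143 and 173 CPM in the controls and at 374 and 264 in the deleted plates (1.01 ± 0.26, SE, adjusted p = 0.159). The groups did not overlap, and its share of wells with reads was 76.5% in the controls and 87.7% in the deleted plates. Plxna2 was at 49.7 to 91.0 CPM in these 4 plates (0.13 ± 0.31, SE), and Plxna4 at 83.4 and 71.4 against 51.1 and 56.5 CPM (-0.53 ± 0.25, SE, adjusted p = 0.528).

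Netrin-4, a secreted netrin related to laminins, was among the lower expressed genes with higher values after deletion. Ntn4 was at 2.21 and 1.12 CPM in Tie1 Tie2 fl/fl and 6.76 and 10.6 in Tie1 Tie2 iΔLEC (2.38 ± 0.74, SE, adjusted p = 0.282), and the wells with reads were 5.51% and 14.1%. The netrin receptor gene Unc5b was at 121 and 114 CPM against 173 and 189 (0.62 ± 0.28, SE, adjusted p = 0.501), again with no overlap. Robo4 was at 418 and 333 against 510 and 415 CPM, which overlap. Slit3, a secreted Robo ligand, was at 1.55 and 0.258 CPM in the controls of this strain and 0 and 0.0186 in the deleted plates (-6.19 ± 1.30, SE, adjusted p = 0.0823), and 1 well held up to 77.7% of its reads in a plate. The 5 transcripts that only share a prefix did not pass in either deletion.

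**Figure D2:**
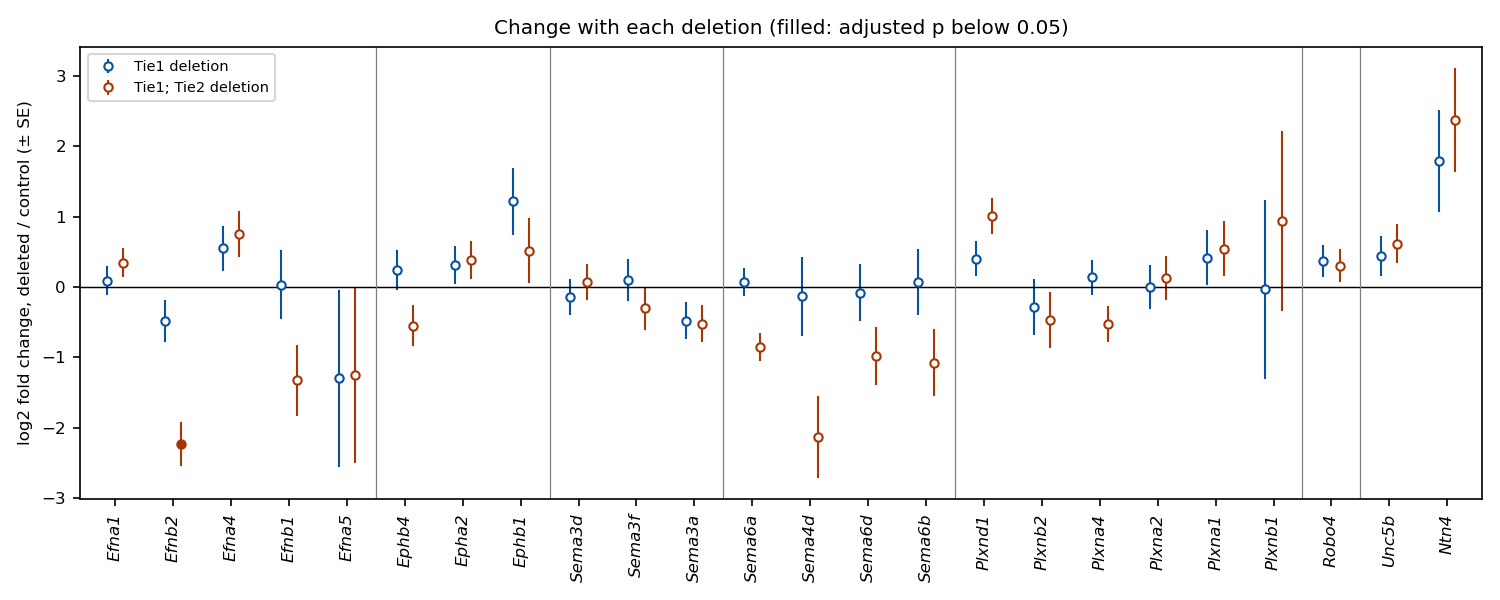
Log2 fold change (± SE) after Tie1 deletion and after Tie1/-2 deletion for the 23 guidance genes of at least 10 CPM and Ntn4. A filled symbol marks an adjusted p under 0.05, which 1 gene reached, Efnb2 after Tie1/-2 deletion at -2.24.

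Deletion of Tie1 alone asks which of these genes respond while Tie2 is kept. No guidance gene of 58 passed, and neither did any other of the 19903 genes (0.00%) with edgeR, while DESeq2 called 174 genes, 2 of them guidance genes. The deleted gene Tie1 itself did not pass with edgeR (2205 and 2869 against 677 and 655 CPM, adjusted p = 0.278). A gene left uncalled here is therefore not shown to be unchanged. At an unadjusted p under 0.05, 7 guidance genes were found (12.1%, against 4.27% of all genes), 6 higher and 1 lower, where 2.79% and 1.47% of all genes were. Both deleted plates lay above both controls for 16 and below for 6, against 15.5% and 13.4% of all genes, and the median log2 fold change was 0.28, against 0.00 for all genes.

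In the Tie1 strain Ntn4 was at 2.04 and 0.995 CPM in the controls and 6.73 and 3.85 in Tie1 iΔLEC (1.80 ± 0.73, SE, adjusted p = 1). Ephb1, an EphB receptor, was at 18.2 and 15.6 against 57.7 and 20.8 CPM (1.22 ± 0.47, SE, adjusted p = 1), in which 1 deleted plate carries most of the difference. Sema3b was at 0.127 and 0.377 against 4.67 and 3.63 CPM (4.04 ± 1.14, SE, adjusted p = 1). These 3 genes did not overlap between the groups. Sema3b was under 1 CPM in all 4 control plates, and 1 well held up to 92.9% of its reads in a plate. Efnb2 was at 67.7 and 74.1 CPM in the controls and 42.3 and 59.4 in the deleted plates, without overlap, for a log2 fold change of -0.48 ± 0.30 (SE, adjusted p = 1). Sema4d (85.4 and 140 against 92.7 and 113 CPM), Sema6a (440 and 355 against 398 and 438) and Robo4 (266 and 306 against 315 and 423) gave log2 fold changes of -0.13 ± 0.56, 0.07 ± 0.20 and 0.37 ± 0.23 (SE). The other genes with an unadjusted p under 0.05, Ephb6, Sema4f, Sema4g and Sema5b, were under 1 CPM in at least 4 of the 8 plates, and 1 well held 50% to 100% of the reads of the plate where it was most. Ephb6 was at 0.0952 and 0 CPM against 1.80 and 3.97, Sema4f at 0.0847 and 0.188 against 7.88 and 0.0259, Sema4g at 0.0317 and 5.94 against 0.0796 and 0.0259, and Sema5b at 0.381 and 0.175 against 3.83 and 5.55. Sema5b and Ephb6 did not overlap between the groups, whereas Sema4f and Sema4g each rest on a single plate. Ephb6, among the 6 higher genes, passed the filter only through the Tie1 iΔLEC plates, so its higher value was set in advance.

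The 2 deletions were set against each other by the difference of their log2 fold changes. None of the 58 guidance genes passed this test (0.136% of all genes did). At an unadjusted p under 0.05, 9 were found (15.5%, against 7.42% of all genes), all lower with the double deletion (5.32% of all genes were lower and 2.11% higher), and the median difference was -0.59, against -0.02 for all genes. Among these, Efna2, Epha4, Ephb6, Sema5a, Sema5b and Slit3 had control means of only 0.143 to 5.49 CPM. Efna2 passed the filter only through the Tie1 Tie2 fl/fl plates and Ephb6 only through the Tie1 iΔLEC plates, so the direction of their differences was set in advance. In 4 of the 58 (6.90%, against 4.59% of all genes) both deleted plates lay above both controls in 1 strain and below both in the other, namely in Ephb4, Robo3, Sema5a and Sema5b. The difference was -1.76 ± 0.43 for Efnb2 (SE, adjusted p = 0.296), -2.002 ± 0.81 for Sema4d (SE, unadjusted p = 0.0371) and -0.93 ± 0.28 for Sema6a (SE, adjusted p = 0.435). For Plxnd1 and Ntn4 it was 0.61 ± 0.36 and 0.58 ± 1.00 (SE). In the average effect of both deletions, the mean of the 2 contrasts within strains, Efnb2 was the one guidance gene that passed (-1.36 ± 0.21, SE, adjusted p = 0.0316, where 0.995% of all genes passed and 0.698% fell). This average includes the Tie1/-2 contrast from the same plates, so its call of Efnb2 is not independent of the call after Tie1/-2 deletion. At an unadjusted p under 0.05, 14 guidance genes were found (24.1%, against 9.87% of all genes), 6 higher and 8 lower (4.25% and 5.62% of all genes). Among them were Sema3b (3.21), Unc5b (0.53) and Efna4 (0.65) on the higher and Sema3a (-0.50) on the lower side, as log2 averages. It passed in 9 of 17 alternatives, with log2 fold changes of -1.54 to -1.21 and adjusted p of 6.31e-07 to 0.155, and its call was lost when any plate other than Tie1 Tie2 iΔLEC replicate 1 was left out.

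A list of 52 other genes of these pathways, of coreceptors and intracellular partners, gave 2 called genes of 49 tested after Tie1/-2 deletion (1.20% of all genes were called). Nrp2, the neuropilin that binds VEGF-C and class 3 semaphorins, was at 428 and 428 CPM in the controls and 141 and 143 in the deleted plates and fell (-1.59 ± 0.27, SE, adjusted p = 0.0302). Leaving out any 1 of the 4 plates of the strain lost the call of Nrp2 (adjusted p = 0.107 to 0.179). Crmp1, a cytoplasmic mediator of semaphorin signaling, was at 2.69 and 2.12 against 39.1 and 15.6 CPM and rose (3.51 ± 0.63, SE, adjusted p = 0.0416), a call lost in 9 of 18 alternatives, most of all without Tie1 Tie2 fl/fl replicate 2 (adjusted p = 0.276). Reads of Crmp1 were found in 3.27% of control wells and 11.0% of deleted wells of the strain, and 1 well held up to 78.7% of its reads in a plate. Neo1, which encodes the netrin and RGM receptor neogenin and also served as a valve marker, was at 106 and 196 against 466 and 395 CPM (1.51 ± 0.31, SE, adjusted p = 0.0756) and rose in the average effect (1.42, adjusted p = 0.028). That call was lost when any plate but Tie1 Tie2 fl/fl replicate 2 was left out (adjusted p of 0.0523 to 0.103). In the Tie1 strain Nrp2 was at 412 and 292 against 391 and 259 CPM and Neo1 at 89.6 and 109 against 229 and 274. Nrp1 was at 0.0314 to 1.31 CPM in all plates. The deletion effect on each of these genes in the Tie1 strain alone did not pass.

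Markers of other cells were counted beside these values. The 6 markers of blood vascular endothelium summed to 252 to 308 CPM in the control plates, 394 to 567 in Tie1 iΔLEC and 723 to 944 in Tie1 Tie2 iΔLEC. Aqp1 made up most of the sum, with 229 and 261 CPM in Tie1 Tie2 fl/fl and 730 and 625 in Tie1 Tie2 iΔLEC, and Cd34 (15.98 and 10.6 against 124 and 57.6 CPM) and Sox17 (0.437 and 3.59 against 89.2 and 36.6 CPM) were also higher. Of the other 3 markers, Ly6c1 (2.39 and 2.39 against 0.0157 and 0.325 CPM) and Vwf (3.60 and 10.3 against 0.251 and 0.585 CPM) were lower. Flt1 overlapped (1.27 and 2.34 against 0 and 2.65 CPM). The lists for kinds of blood endothelium were lower in Tie1 Tie2 iΔLEC than in Tie1 Tie2 fl/fl. Arterial markers summed to 2999 and 2745 CPM in the controls and 1691 and 1195 after deletion, and capillary markers to 728 and 704 against 300 and 397. Venous markers summed to 593 and 542 against 42.6 and 49.0 CPM, and activated venous markers to 3172 and 2739 against 1154 and 1010. The part of these markers in the guidance gene values was not tested. Mural and fibroblast markers summed to at most 53.2 and 234 CPM in any plate. Cartilage markers summed to 416 and 459 CPM in Tie1 Tie2 fl/fl and 6.18 and 9.49 in Tie1 Tie2 iΔLEC. In the Tie1 strain they summed to 261 and 590 CPM in the controls and 272 and 343 after deletion. Of these 5 markers, 3 were under 1 CPM in both control plates of each strain, and their part in the guidance gene values was not tested. The collector markers summed to 4698 and 4652 CPM in Tie1 Tie2 fl/fl and 2909 and 1909 in Tie1 Tie2 iΔLEC. In summed plates a smaller share of a kind of LEC and less RNA per cell cannot be told apart, so the same genes were read within LEC clusters.

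LECs were clustered without the guidance genes, their pathway list, Tie1, Tek and Ntn1, and 11 clusters were kept. Those named from markers as capillary-like, collector-like and valve-like LECs differed in their levels of guidance genes in the control plates. Sema3a was at 162 CPM ± 56.2 in valve-like and 37.6 ± 25.2 in capillary-like LECs (SD, n = 4), and was higher in valve-like LECs in 8 of 8 plates. Robo4 was at 48.1 CPM ± 46.9 in valve-like, 297 ± 77.7 in capillary-like and 416 ± 89.05 in collector-like LECs (SD, n = 4), lower in valve-like LECs in all 8 plates. Sema6a was highest in capillary-like LECs (610 CPM ± 124, against 374 ± 46.4 in valve-like, SD, n = 4). Sema3d was at 335 CPM ± 40.9 in valve-like and 207 ± 59.2 in collector-like LECs, and Unc5b at 234 ± 82.1 and 74.4 ± 21.6 (SD, n = 4). Efnb2 was at 85.2 CPM ± 7.11 in collector-like, 46.6 ± 24.9 in capillary-like and 43.9 ± 21.7 in valve-like LECs, and Ephb4 at 865 ± 105, 694 ± 122 and 893 ± 152 (SD, n = 4). The clusters come from the same wells, so these levels are descriptions.

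Within the clusters, Efnb2 was lower in both Tie1 Tie2 iΔLEC plates than in both controls in 10 of 11 clusters. In capillary-like LECs Efnb2 was at 76.6 and 57.0 CPM in the controls and 6.92 and 12.5 in the deleted plates, and in the unnamed cluster 6 at 141 and 150 against 3.69 and 4.23. The capillary-like wells numbered 37 and 44 in the controls and 17 and 10 in the deleted plates. Valve-like LECs were the exception, with 40.1 and 33.1 CPM of Efnb2 against 54.6 and 18.1. In collector-like LECs Efnb2 was at 75.8 and 93.0 CPM against 0 and 23.1, where the wells numbered 72 and 64 in the controls but 6 and 9 in the deleted plates. Sema4d lay below the controls in 10 clusters, valve-like LECs included (162 and 171 against 88.5 and 12.2 CPM), the exception being proliferating LECs with 4.38 and 2.38 against 19.8 and 0.719 CPM. Nrp2 lay below in 10 clusters, with valve-like LECs again overlapping at 187 and 57.0 against 54.8 and 102 CPM. Plxnd1 lay above the controls in 7 clusters and below them in none, for example at 57.5 and 124 against 432 and 293 CPM in collector-like LECs and at 180 and 168 against 600 and 457 in proliferating LECs. Sema6a and Ephb4 were each below in 8 clusters, and Ntn4 above in 7. After Tie1 deletion alone, Efnb2 was below the controls in 3 of 11 clusters and overlapped in 8. The 11 clusters come from the same plates, so their counts are not independent of each other. The genes named here were picked with their summed plate values known. The share of all genes with such counts was not computed.

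**Figure D3:**
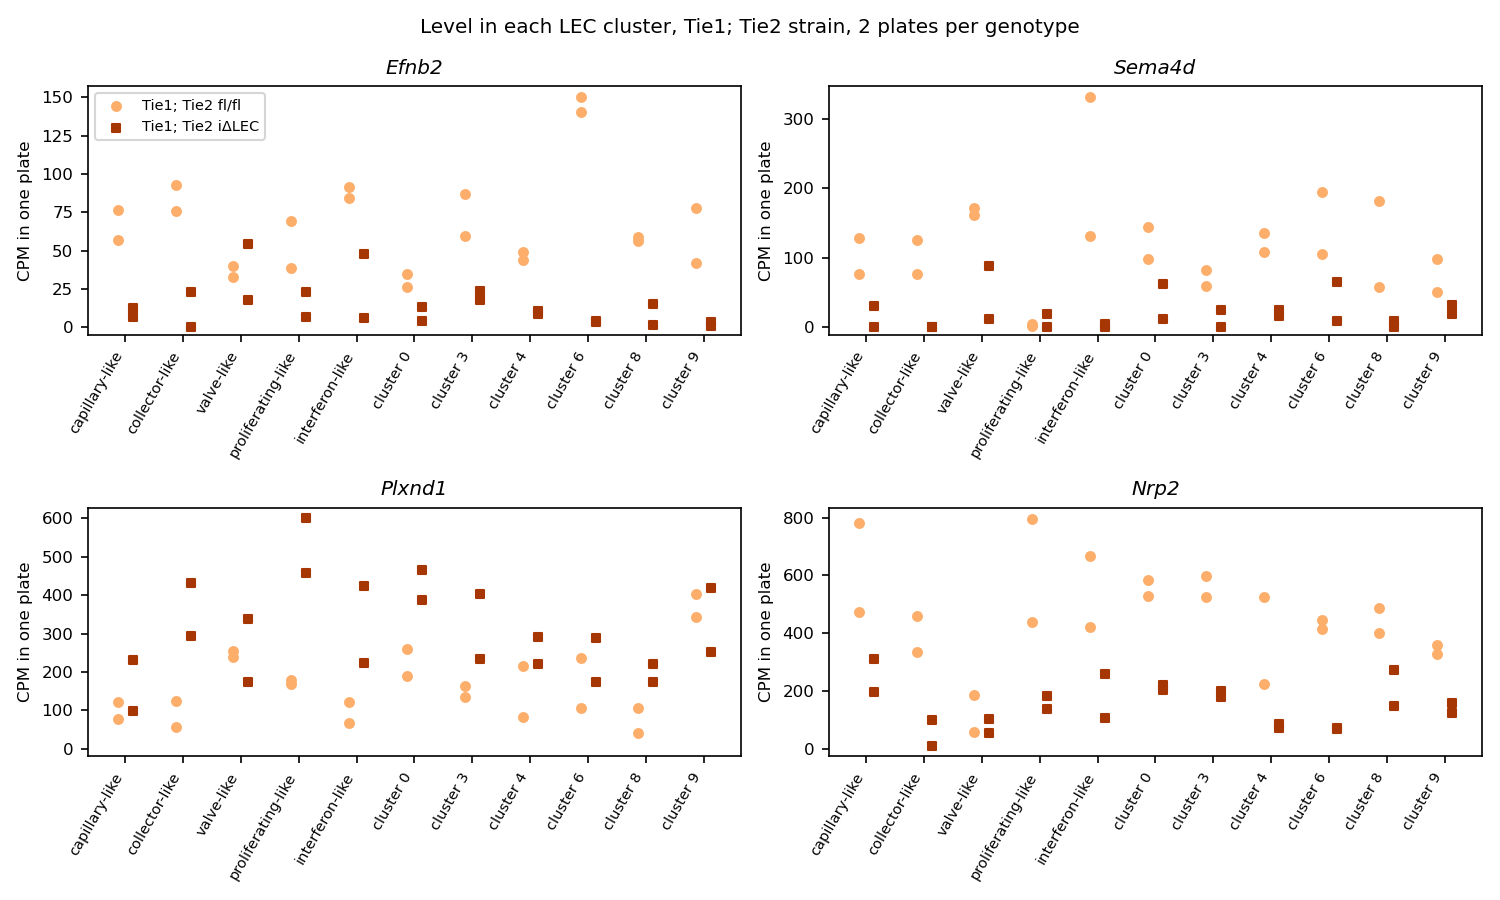
CPM of Efnb2, Sema4d, Plxnd1 and Nrp2 in each of 11 LEC clusters of the Tie1 Tie2 strain, 1 point per plate, with control and deleted plates in separate colors. Efnb2 and Nrp2 separate in 10 clusters and overlap in valve-like LECs, and Plxnd1 lies above the controls in 7.

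The droplet libraries hold other skin cells, which places the guidance genes by cell type. Of the 65, 7 were highest in LECs in both libraries, namely Sema3d, Sema6a, Sema3a, Sema4d, Plxna4, Robo3 and Epha10. Sema3d was at 319 CPM (IgG) and 305 CPM (Ang2 Ab) in LECs and at 8.24 and 4.67 CPM in blood vascular endothelial cells (BECs), Sema6a at 241 and 274 against 198 and 189 CPM. Efnb2 was high in LECs (285 and 170 CPM) but higher in arterial endothelial cells (604 and 642 CPM), where Sema3g, an arterial gene, reached 1027 and 1049 CPM. Plxnd1 led in capillary endothelial cells (514 and 582 CPM), with Robo4 (301 and 388) and Plxna2 (239 and 284) next. Plxnd1 also led in venous cells (245 and 285 CPM), with Robo4 (172 and 245) and Ephb4, a venous marker (187 and 190), next in an order that differed between the libraries. Mural cells had Plxnd1 (188 and 190 CPM), Sema5a (124 and 163) and Sema6d (121 and 122) as their highest members. Outside the endothelium, Slit3 reached 92.1 and 130 CPM in fibroblasts, Unc5c 75.0 and 61.0 in cartilage cells, Efna3 80.9 and 111 in keratinocytes and Sema3b 392 and 411 in Schwann cells, the latter from 17 and 11 cells. Sema3c was shared by fibroblasts (116 and 102 CPM) and cartilage cells (99.1 and 90.03 CPM). Sema3g was at least 7.03-fold, Efna3 76.4-fold and Sema3b 25.7-fold above each other cell type in both libraries, and Unc5c, Epha1, Plxnb3 and Sema6c were at least 4-fold above, in cartilage cells, keratinocytes and, for the last pair, Schwann cells. The next types for Efna3, fibroblasts (IgG) and arterial cells (Ang2 Ab), had very low levels of it, so the size of its fold is imprecise. Repeats with other filters or clusterings put 55 to 63 of the 65 in the same highest cell type.

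**Figure D4:**
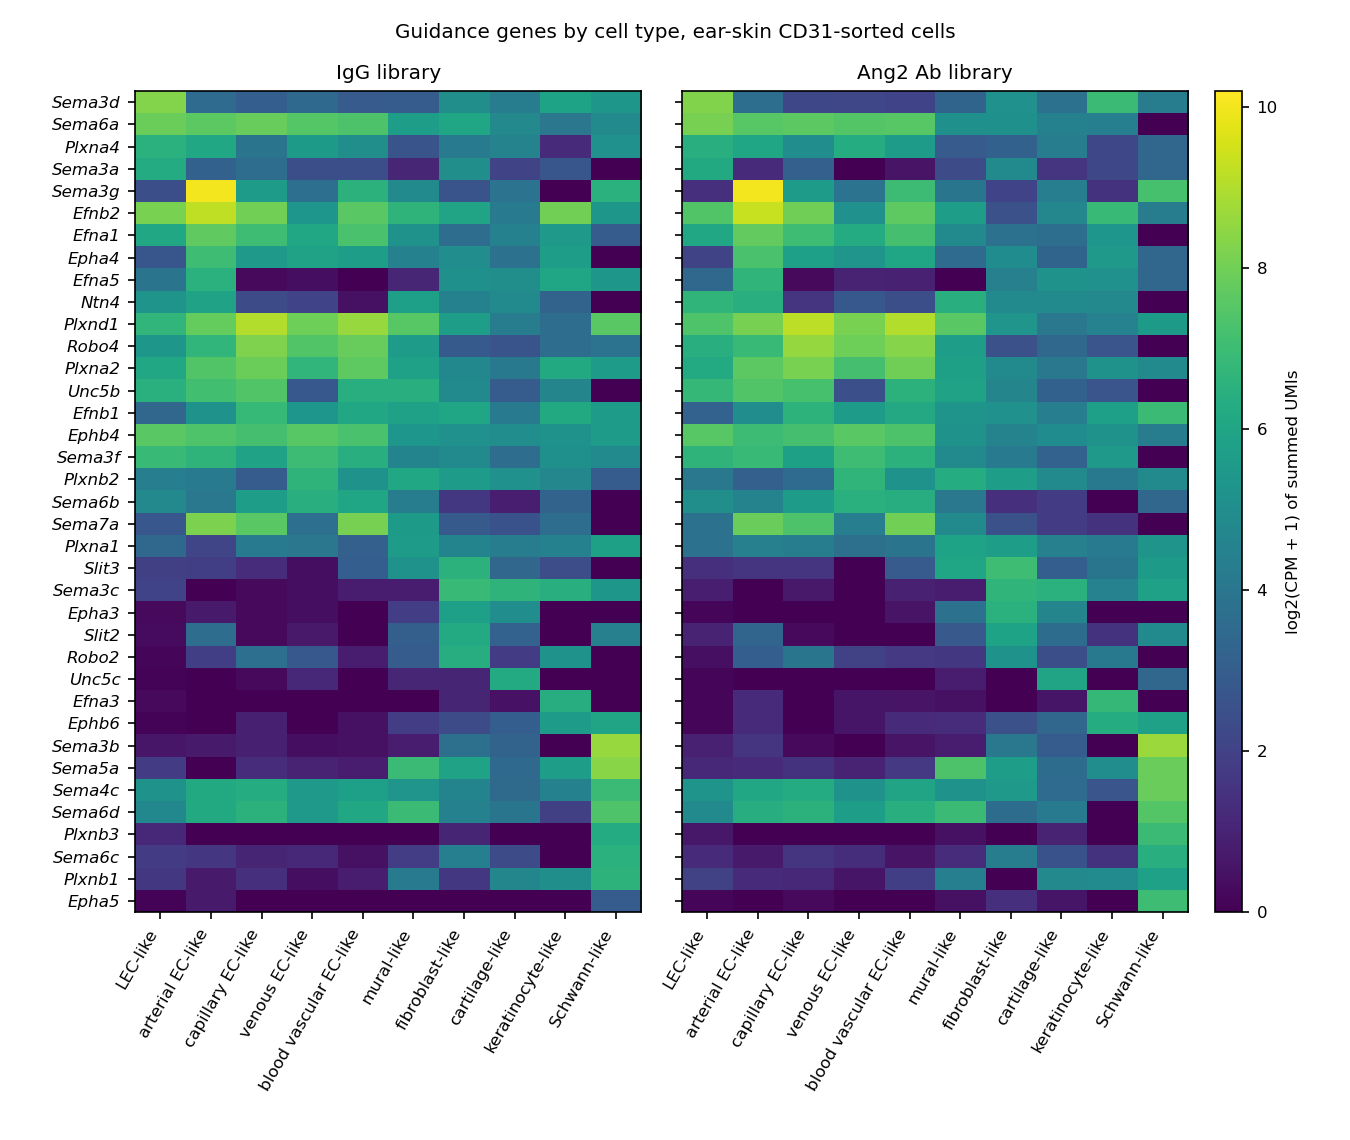
Level of the 37 guidance genes that reach 50 CPM in a cell type, as log2(CPM + 1) by color, in each cell type (columns) of the IgG and the Ang2 Ab library. Sema3d stands out in LECs, Sema3g in arterial cells and Sema3b in Schwann cells in both libraries.

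The comparison of Ang2 Ab with IgG asks how the same genes respond when the ligand of the Tie receptors is blocked. With 1 library each no test applies, and intervals cover counting error only. Of 27 guidance genes with at least 100 UMIs in LECs, 9 differed by at least 1.5-fold (8.01% of all 10563 such genes did), 6 higher and 3 lower (3.66% and 4.35% of all such genes), and the median ratio was 1.03, against 0.998 for all genes. In BECs 3 of 26 did (3.35% of all 10284 genes, 1.47% higher and 1.89% lower), namely Ntn4 (9.64 and 15.1 CPM, ratio 1.57), Sema3a (7.58 and 3.83, ratio 0.505) and Sema3d (8.24 and 4.67, ratio 0.566), all at low levels there. With at least 30 UMIs, 15 of 37 guidance genes in LECs (12.1% of all genes) and 7 of 34 in BECs (6.84%) were beyond 1.5-fold.

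Ntn4 was at 38.3 CPM with IgG and 102 CPM with Ang2 Ab in LECs, a ratio of 2.66 (95% interval 2.39 to 2.95). Robo4 was at 41.3 and 85.8 CPM (2.08, 1.87 to 2.31) and Plxnd1 at 105 and 167 CPM (1.59, 1.49 to 1.71), which came to 1.491 with a mitochondrial limit of 5%. In BECs, Robo4 was at 226 and 311 CPM and Plxnd1 at 380 and 470 CPM, ratios of 1.37 and 1.24. The other genes with a higher level in LECs were Ephb1 (22.6 and 37.2 CPM), Sema7a (5.91 and 13.5) and Robo1 (3.08 and 5.92), all at lower counts. Efnb2 was lower with Ang2 Ab, with 285 and 170 CPM (0.597, 0.562 to 0.633), as were Sema4d with 26.8 and 16.5 CPM (0.615, 0.505 to 0.745) and Epha4 with 5.60 and 3.25 CPM (0.581, 0.366 to 0.896). In BECs the level of Efnb2 was 229 and 256 CPM, a ratio of 1.12 (1.06 to 1.18). Abundant members with ratios near 1 in LECs were Ephb4 (0.984), Sema3d (0.958), Efna1 (1.03) and Sema6a (1.14).

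**Figure D5:**
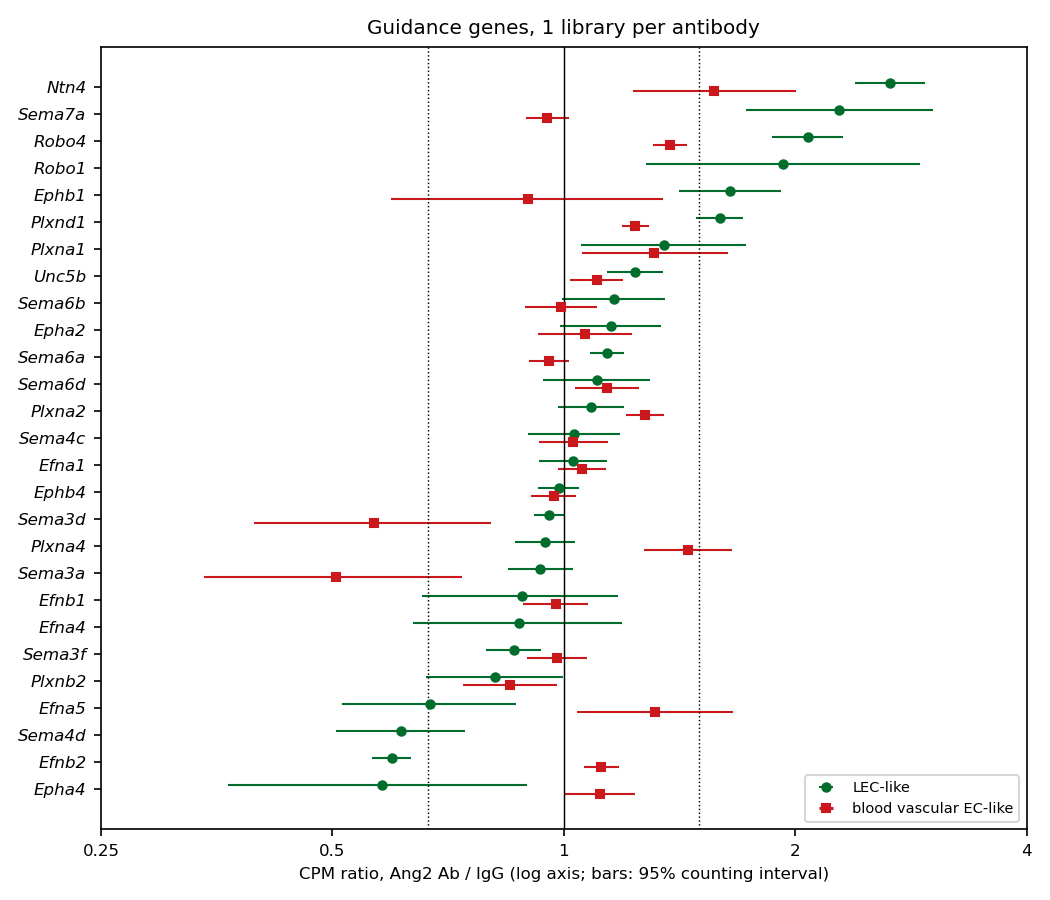
Ratio of CPM with Ang2 Ab to CPM with IgG (log axis) for the 27 guidance genes with at least 100 UMIs in LECs, in LECs and in BECs, with 95% counting intervals. Ntn4 (2.66) and Sema7a (2.28) lie highest and Epha4 (0.581) and Efnb2 (0.597) lowest in LECs.

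Within the LECs the ratio of Efnb2 differed by subcluster. It was 0.403 (0.355 to 0.457) in capillary-like LECs, from 276 to 111 CPM, and 0.616 (0.557 to 0.681) in the unnamed cluster of 428 and 191 cells. In collector-like LECs it was 0.971 (0.874 to 1.08), with 492 and 478 CPM, and in valve-like LECs 0.791 (0.615 to 1.01). Sema4d had a ratio of 0.314 (0.194 to 0.490) in capillary-like and 0.868 (0.595 to 1.24) in collector-like LECs. Ntn4 was higher in capillary-like (3.02), collector-like (2.71) and unnamed LECs (4.03), and in valve-like LECs, where its level was highest with 197 and 237 CPM, the ratio was 1.20 (0.992 to 1.46). Robo4 had ratios of 1.96 to 2.16 in capillary-like, collector-like, proliferating and unnamed LECs and was at 5.81 and 2.41 CPM in valve-like LECs. Plxnd1 had ratios of 1.45 in capillary-like, 1.66 in collector-like and 2.54 in proliferating LECs.

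The shares of subclusters and some marker sums differed between the libraries. Collector-like LECs numbered 243 with IgG and 100 with Ang2 Ab, capillary-like LECs 314 and 223, and the collector markers summed to 1160 and 652 CPM over all LECs. The blood vascular markers summed to 204 and 360 CPM in LECs, of which Aqp1 was 114 and 227 CPM. Flt1 was at 16.8 and 26.3 CPM in LECs, against 1086 and 1016 in BECs. The lists for kinds of blood endothelium were lower with Ang2 Ab in LECs. Arterial markers summed to 1484 and 1129 CPM, capillary markers to 361 and 318, venous markers to 202 and 103, and activated venous markers to 2699 and 2133. The part of these differences in the summed LEC ratios was not tested.

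The plates and the droplet libraries share no animals, so the members were set side by side. The experiments also differed in timing, with deletion induced from P1 to P5 and antibody given from P16 to P21. Their cell sorting and platform differed as well. All 9 guidance genes beyond 1.5-fold with Ang2 Ab had a fold change of the same sign after Tie1/-2 deletion and after Tie1 deletion, although in the plates only Efnb2 passed the test. Some of these signs are weak. After Tie1 deletion the SE was larger than the log2 fold change for Epha4 (-0.48 ± 1.29) and for Sema4d. Sema7a and Robo1 had control means of only 0.195 and 2.28 CPM in the plates. Of all genes beyond 1.5-fold with Ang2 Ab, 806 were tested in the plates, and 79.9% had the same sign after Tie1/-2 deletion and 75.4% after Tie1 deletion. For Efnb2 the ratio of 0.597 with Ang2 Ab stood beside log2 fold changes of -2.24 and -0.48, for Ntn4 a ratio of 2.66 beside log2 fold changes of 2.38 and 1.80, and for Plxnd1 a ratio of 1.59 beside log2 fold changes of 1.01 and 0.40. The ratios are on a linear and the fold changes on a log2 scale. Because timing, sorting and platform differed and each antibody had 1 library, only their directions were read side by side. Sema6a differed, with a ratio of 1.14 beside log2 fold changes of -0.86 and 0.07. Nrp2 was at 429 and 286 CPM in the droplet LECs (ratio 0.667), Neo1 at 91.99 and 199 (2.16) and Crmp1 at 2.95 and 9.64 (3.26).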

How the data were processed

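Ear skin cells were sequenced in 8 Smart-seq plates and 2 droplet libraries. For the plates, the authors deposited raw read counts per gene and well, made with TopHat2 2.1.1 and featureCounts on GRCm38/mm10 after removal of duplicate reads, per the processing notes. Filtered UMI counts per gene and droplet were deposited for the IgG and Ang2 Ab libraries, made with Cell Ranger (2.1.1 per the notes, while the matrix header names 6.0.2). Each genotype has 1 plate table with symbols and 1 with Ensembl identifiers, and the tables were joined on 42558 genes (95.9% to 97.1% of counts). The median of detected genes per well was 3578 to 6846. Spike-in rows, up to 0.155% of counts, were left out.

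Wells with at least 1000 genes and droplet cells with at least 500 genes and a mitochondrial share of at most 10% entered the clustering (2000 variable genes, 30 components, 15 neighbors, Leiden resolution 1.0) without the guidance genes, their pathway list, Tie1, Tek and Ntn1. Clusters were named from marker lists by at least 3 markers raised 1.5-fold, and fibroblast and keratinocyte wells were removed. Scrublet marked 0.582% and 0.0675% of droplet cells, too few to have worked, so removing the highest 5% of scores was an alternative. Of 4685 and 4331 barcodes, 3418 and 2961 were kept. LEC counts were summed per plate, since wells are not replicates, for 1 fit of 8 plates in edgeR 4.0.16 by its quasi-likelihood test, with filterByExpr, TMM factors and Benjamini-Hochberg adjustment over all genes (threshold 0.05). The test was tried on simulated counts. CPM of genes in whole plates are counts of the summed LECs scaled to 1000000 by TMM-adjusted library sizes. CPM of clusters and droplet cell types are scaled to 1000000 by their plain totals, so plate and cluster values are not on the same scale. Droplet UMIs were summed per cell type, with exact 95% Poisson or binomial intervals. Genes are described where they had a p under 0.05, were among the 10 highest per kb, or, in the droplets, had at least 100 UMIs and a 1.5-fold ratio. Values of some further members that meet none of these rules are given beside them. The members, lists and tests were chosen with earlier results of these data known. The results were recomputed with limma 3.58.1 on mean CPM, RLE factors, DESeq2 1.42.0, low counts left unfiltered, a term for the table layout, a replicate block, other filters and clusterings, the 4 plates of a strain, and each plate left out. Clustering used scanpy 1.11.5 with leidenalg 0.10.2 in Python 3.11.15, and intervals scipy 1.17.1.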

Additional observations from a re-analysis of the deposited data

Results flagged for a closer look

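For 4 guidance genes both deleted plates lay above both controls in 1 strain and below both in the other (6.90% of the 58 tested, against 4.59% of all genes). The difference between the deletions was tested for each, and none passed the adjustment over all genes. For Ephb4 the log2 fold change was 0.24 after Tie1 deletion and -0.55 after Tie1/-2 deletion, a difference of -0.79 (unadjusted p = 0.0865, adjusted p = 0.765). For Robo3 it was -0.82 and 1.30, a difference of 2.12 (unadjusted p = 0.104, adjusted p = 0.802). Sema5a had 1.35 and -3.01, a difference of -4.36 (unadjusted p = 0.033, adjusted p = 0.617). Sema5b had 4.07 and -4.57, a difference of -8.64 (unadjusted p = 0.000128, adjusted p = 0.0669). Sema5b was at 0.381 and 0.175 CPM in Tie1 fl/fl, 3.83 and 5.55 in Tie1 iΔLEC, 4.18 and 2.20 in Tie1 Tie2 fl/fl, and 0.125 and 0.139 in Tie1 Tie2 iΔLEC, so that its control plates differed between the strains as well.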

How the results depend on the processing

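Without the filter on low counts, 2 guidance genes were called for Tie1 deletion, 7 for Tie1/-2 deletion, 6 for the difference and 9 for the average effect, and with DESeq2 the counts were 2, 8, 4 and 7, against 0, 1, 0 and 1 with edgeR. The shares of all genes called in the same order were 0.879%, 3.94%, 2.03% and 3.56% without the filter and 0.874%, 5.13%, 2.24% and 4.50% with DESeq2. The 8 of DESeq2 for Tie1/-2 deletion were Efnb2, Epha4, Ntn4, Plxnd1, Sema4d, Sema5b, Sema6a and Slit3. With the 4 plates of the strain alone none was called for Tie1/-2 deletion (0), and limma on mean CPM called 2 for the average effect. With a plate left out, the count ranged from 0 to 0 for Tie1 deletion and the difference and from 0 to 2 for Tie1/-2 deletion and the average effect. The replicate block left 0, 1 and 0 called for Tie1 deletion, Tie1/-2 deletion and the difference and lost the 1 call of the average effect (0), and of the single genes it lost Crmp1 after Tie1/-2 deletion (adjusted p = 0.0797) and, in the average effect, Efnb2 (0.0615) and Crmp1 (0.0583). Same-numbered plates of different genotypes correlated at -0.0390 to 0.0741 in their deviations from the group means, so the numbers were not taken to pair the plates, although same-numbered plates of a strain share the table layout and, in the Tie1 strain, the labelled sex. The cause of these differences was not tested. Signs turned when a plate was left out for 3 genes at low counts. Sema4f after Tie1 deletion ranged from -2.33 (without Tie1 iΔLEC replicate 1) to 5.84, Sema4g from -6.77 to 0.71 after Tie1 deletion and from -3.93 to 0.17 in the average effect (both without Tie1 fl/fl replicate 2), and Efnb3 in the average effect from -5.84 to 1.498 (without Tie1 fl/fl replicate 1). With at least 30 UMIs in place of 100, 15 guidance genes in LECs and 7 in BECs lay beyond 1.5-fold with Ang2 Ab (9 and 3 with 100), and with a mitochondrial limit of 5% 1 did in BECs, or 2 without the highest doublet scores. In LECs both settings left 7, without Robo1 and Epha4, which fell under 100 UMIs but stayed beyond 1.5-fold at the minimum of 30. The ratio of Epha4 was 0.662 with the mitochondrial limit and 0.431 without the highest doublet scores. The mitochondrial limit also left out Plxnd1 (ratio 1.491) and added Efna5. Of the values for single genes under the alternatives, 879 were counted as the same, 53 passed in addition, 42 no longer passed, 4 turned and 3 moved. For the plates, the same meant the same direction and side of the threshold, which a gene not called in either analysis also meets. For the antibody ratios it meant a value within the main counting interval. A ratio could thus cross 1.5-fold and still count as the same, as Plxnd1 did. With 2 plates per genotype, genes under 10 CPM rest on few wells, which limits their precision.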

Other observations

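A droplet cluster of 160 (IgG) and 132 (Ang2 Ab) cells expressed Prox1 but was left unnamed, with leading genes such as Fibin, Sbspon and Cldn11, and was not counted with the LECs. In it Ntn4 was at 132 and 206 CPM, a ratio of 1.56 (95% counting interval 1.31 to 1.86), and Efnb2 at 279 and 304 CPM, a ratio of 1.09 (0.954 to 1.25). Robo4 was at 5.34 and 4.71 CPM and Plxnd1 at 155 and 162 CPM there. Counting this cluster with the LECs, an alternative chosen after the data were seen, left 8 guidance genes beyond 1.5-fold in place of 9. Sema4d (0.670) and Epha4 (0.674) were then no longer beyond it, and Efna5 was.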
